A study of Homo sapiens with 8 samples.

Results

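Cholesterol synthesis was described through 8 of its genes, HMGCS1, MVD, FDPS, FDFT1, SQLE, LSS, CYP51A1 and DHCR7, out of 38779 genes with a value in the 8 libraries. The 8 genes were selected on measured values of these same libraries: the pathway had been seen to be lower with the AUF1 isoforms p37 and p45, so what these genes did with p37 and p45 is given as a description and supports nothing. For every gene the deposited FPKM values, which are fragment numbers normalised to transcript length and library size, were summed over its transcripts of 300 nt or more and divided by 1 scaling factor per library. On this scale the 8 genes did not share a clear fall with p37 or p45. With p37, FDPS was more than 2-fold lower and LSS more than 2-fold higher. With p45, CYP51A1 was more than 2-fold lower and DHCR7 more than 2-fold higher, and every other gene of the 8 stayed within 2-fold of the empty vector in both libraries. Of the 7 genes high enough to be compared with p37, 4 lay below the empty vector and 3 above. With p45, 6 of 8 lay below and 2 above. As a description only, the label of a pathway lower with both isoforms was thus not followed by every gene.

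All libraries were made from total RNA of transfected HEK293 cells, an established line from human embryonic kidney, of unknown passage. Each group held 1 library: AUF1 siRNA and its control siRNA, the empty vector, Flag-tagged AUF1 p37, p40, p42 or p45, and all these isoforms together. AUF1 is the product of HNRNPD and is known to bind AU-rich stretches of mRNA. The knockdown was compared with the control siRNA, and each overexpression library with the empty vector, which they all share as their control. The control siRNA against the empty vector, with AUF1 altered in neither, showed how far libraries lay apart without a change of AUF1. Since each group is a single library, differences below come without replicates and without p-values.

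Cholesterol is built from acetyl-CoA through mevalonate, isoprenoid units, farnesyl diphosphate, squalene and lanosterol, and farnesyl diphosphate also feeds protein prenylation, dolichol and coenzyme Q. When sterols are scarce in the endoplasmic reticulum, SCAP carries the membrane-bound factor SREBP-2, encoded by SREBF2, to the Golgi, where it is cut and freed to enter the nucleus and raise the genes of the pathway. INSIG1 holds SCAP back when sterols are plentiful, and SREBP-2 is known to act beside the factors NF-Y, which binds CCAAT boxes, and Sp1, which binds GC boxes.

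The labels held for the targeted gene. HNRNPD stood at 298 scaled FPKM with the control siRNA and 167 with the AUF1 siRNA, and at 313 with the empty vector against 3007 to 4887 in the 5 overexpression libraries. Deposited coverage per FPKM, a measure of relative depth, was lowest with all isoforms (0.213) and highest with p42 (0.345). Of the HEK293 markers NEFM, LIN28B, GATA3, PAX2 and PAX8 were above 0 in all 8 libraries and summed to 65.0 to 91.6, while NEFL was not analysed here. The 6 fibroblast markers summed to between 2.0 and 6.70, with DCN, LUM and POSTN at or near 0. Of the cervical carcinoma line markers CDKN2A, which ran from 90.4 to 252, carried most of a sum of 147 to 304. In bulk RNA, fewer cells that express a gene and less RNA per cell cannot be told apart.

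The promoters carry boxes for known partners of SREBP-2, so the stretches that hold them are shown. RefSeq promoter windows of 300 bases, 250 before and 50 after the start site, on GRCh38.p14 matched 6 of the 8 genes, and the windows of FDFT1 and SQLE were not analysed here. For genes with several start sites the one listed first was used. A CCAAT box, searched as CCAAT on either strand, was in 5 of these 6 windows and in 36.4% of 15843 protein-coding promoters of that length. The GC box GGGCGG, on either strand, was in 6 of 6 and in 58.5%. The sterol regulatory element, searched as TCACNCCAC on either strand, was in 0 of 6 and in 1.17%, and no match says only that these letters are not in the window. CYP51A1 was the gene with no CCAAT box in its window. The stretches below run from 15 bases before the first CCAAT box to 15 bases after the last, all upstream of the start, read 5′ to 3′ along the gene, with each CCAAT box or its reverse ATTGG in capitals.
HMGCS1, chr5:43313493-43313582, minus strand, 170 to 81 bases before the start: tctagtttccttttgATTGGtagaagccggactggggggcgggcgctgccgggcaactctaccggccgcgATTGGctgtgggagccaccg
MVD, chr16:88663157-88663265, minus strand, 174 to 66 bases before the start: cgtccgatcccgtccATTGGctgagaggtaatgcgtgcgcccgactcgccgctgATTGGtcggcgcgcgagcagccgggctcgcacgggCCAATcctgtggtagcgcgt
FDPS, chr1:155308675-155308834, plus strand, 191 to 32 bases before the start: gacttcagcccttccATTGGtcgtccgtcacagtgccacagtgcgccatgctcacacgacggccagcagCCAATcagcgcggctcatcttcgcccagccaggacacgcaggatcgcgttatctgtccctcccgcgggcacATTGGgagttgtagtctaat
LSS, chr21:46228905-46228939, minus strand, 165 to 131 bases before the start: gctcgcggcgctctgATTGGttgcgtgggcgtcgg
DHCR7, chr11:71448422-71448502, minus strand, 109 to 29 bases before the start: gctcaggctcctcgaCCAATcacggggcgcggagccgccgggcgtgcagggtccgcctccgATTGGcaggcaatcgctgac
MVD and FDPS held 3 boxes each in these stretches, HMGCS1 and DHCR7 held 2 each and LSS held 1.

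The 3′ untranslated regions were searched for ATTTA, the core of the AU-rich elements that AUF1 is known to bind. In the GENCODE 29 transcripts used, 1 per gene, 5 of the 8 genes held at least 1 ATTTA, or 62.5%, against 62.8% of 18841 protein-coding genes. CYP51A1 held 5, HMGCS1 held 4, SQLE 3, FDFT1 2 and DHCR7 2, while FDPS, LSS and MVD held none. Per kb SQLE (8.88) and FDFT1 (5.59) held more than CYP51A1 (3.30), and the median of the 8 was 2.19 against 1.34 for all genes. The longer element TTATTTA followed by A or T and again A or T was in 0 of 8 and in 16.5% of all genes. The 5 sites of CYP51A1 (ENST00000003100, read from the GRCh38 transcript, so the letters are those of the RNA with T for U) are shown because this gene held the most, with ATTTA in capitals and the position counted in bases after the stop codon.
CYP51A1, position 134: agtttatgATTTAggattttg
CYP51A1, position 426: ttattattATTTAtctgggca
CYP51A1, position 705: aattacatATTTAtttacctg
CYP51A1, position 709: acatatttATTTAcctgataa
CYP51A1, position 748: aaggtcacATTTAtgtggaag
The sites at 705 and 709 overlap. CYP51A1 held the most by count but not per kb. It was also the gene with the lowest ratio of p45 to the empty vector, a comparison the choice of genes used. Whether the sites bear on its level was not tested.

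HMGCS1 (ENSG00000112972, hg19 chromosome 5, 43289497 to 43313614) makes HMG-CoA, an early intermediate on the way to mevalonate. It stood at 32.6 scaled FPKM in the control siRNA library and 37.4 in the AUF1 siRNA library, at 29.3 in that of the empty vector, and at 31.5 (p37), 27.5 (p40), 26.03 (p42), 22.3 (p45) and 27.8 (all isoforms). The AUF1 siRNA library was the highest and the p45 library the lowest, with p37 above the empty vector. The range was 1.68-fold over the 8 libraries, and the deposited bounds, scaled and summed, overlapped between each library and its control. Such bounds were compared for the 8 genes only, and their width depends on the transcripts listed. The share of all genes with bounds apart is not given, so bounds that lie apart below are a description. A retained-intron transcript of 708 nt (ENST00000507293) carried 61.3% to 74.7% of the HMGCS1 value in every library.

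MVD (ENSG00000167508, hg19 chromosome 16, 88718343 to 88729518) decarboxylates mevalonate diphosphate to isopentenyl diphosphate. It was the gene at the lowest level of the 8, at 7.92 scaled FPKM in the control siRNA library and 7.98 in the AUF1 siRNA library, at 4.13 in that of the empty vector, and at 4.06 (p37), 3.71 (p40), 4.38 (p42), 6.59 (p45) and 4.21 (all isoforms). Both siRNA libraries and p45 were high, and the other 5 lay between 3.71 and 4.38. Its 2 transcripts, of 1823 nt and 1818 nt, were both above 0 in the empty vector library and singly in the others, and their near-equal lengths left the sum nearly free of length effects. Because its mean was under 5 scaled FPKM in the pairs of p37, p40, p42 and all isoforms with the empty vector, MVD was compared only with p45, in the knockdown and between the controls.

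FDPS (ENSG00000160752, hg19 chromosome 1, 155278539 to 155290457) makes farnesyl diphosphate, the branch point of sterols and prenyl groups. It stood at 66.2 scaled FPKM in the control siRNA library and 78.7 in the AUF1 siRNA library, at 81.5 in that of the empty vector, and at 26.8 (p37), 48.4 (p40), 87.7 (p42), 78.2 (p45) and 71.9 (all isoforms). The p37 library was the lowest and the p40 library next, and the summed bounds of both (23.4 to 30.2 and 41.1 to 55.7) lay below those of the empty vector (65.6 to 97.4). The p42 and p45 libraries did not share this: FDPS was highest of all 8 with p42.

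FDFT1 (ENSG00000079459, hg19 chromosome 8, 11653082 to 11696818) joins 2 farnesyl groups to squalene, the first step given over to sterols. Its median over the libraries was the highest of the 8 genes, and it stood at 131 scaled FPKM in the control siRNA library and 72.2 in the AUF1 siRNA library, at 116 in that of the empty vector, and at 121 (p37), 75.1 (p40), 74.97 (p42), 102 (p45) and 82.3 (all isoforms). The AUF1 siRNA library was the lowest of all, close to p40 and p42, and its summed bounds (65.5 to 78.9) lay below those of its control (95.6 to 165). With p42 the bounds (62.9 to 87.0) lay below those of the empty vector (89.0 to 142), and with p37 the level was above it. The transcripts listed differed too. The AUF1 siRNA library had 1 assembled transcript of 1040 nt at 69.5 FPKM as deposited. A retained-intron transcript of 418 nt (ENST00000529521), at 57.9 in the control siRNA library, was above 0 elsewhere only with p37 and p45. One of 570 nt (ENST00000528729), at 47.3 with the empty vector, was not above 0 with p42.

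SQLE (ENSG00000104549, hg19 chromosome 8, 126010739 to 126034525) oxidises squalene and is a rate-limiting enzyme of the sterol branch. It stood at 25.4 scaled FPKM in the control siRNA library and 27.2 in the AUF1 siRNA library, at 36.4 in that of the empty vector, and at 26.4 (p37), 25.5 (p40), 22.6 (p42), 18.4 (p45) and 21.6 (all isoforms). The empty vector was the highest library, and p45, all isoforms and p42 were the only libraries below the control siRNA. Against the empty vector its log2 ratio ran from -0.95 with p45 to -0.45 with p37, but the control siRNA library itself lay at -0.51 from the empty vector. No summed bounds of SQLE lay apart from those of the control.

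LSS (ENSG00000160285, hg19 chromosome 21, 47608360 to 47648738) closes the rings of oxidosqualene to lanosterol. It stood at 16.1 scaled FPKM in the control siRNA library and 12.1 in the AUF1 siRNA library, at 8.90 in that of the empty vector, and at 19.2 (p37), 10.1 (p40), 8.60 (p42), 7.33 (p45) and 15.2 (all isoforms). The p37, control siRNA and all-isoform libraries were the high ones, so the groups with and without overexpression overlapped throughout. These were also the 3 libraries in which a transcript of 517 nt (ENST00000419093) was above 0, with 8.56, 11.5 and 9.12 FPKM as deposited in the control siRNA, p37 and all-isoform libraries.

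CYP51A1 (ENSG00000001630, hg19 chromosome 7, 91741465 to 91764117) removes the 14-alpha methyl group of lanosterol. It stood at 37.4 scaled FPKM in the control siRNA library and 28.4 in the AUF1 siRNA library, at 52.2 in that of the empty vector, and at 46.3 (p37), 46.6 (p40), 29.4 (p42), 14.1 (p45) and 44.2 (all isoforms). The p45 library stood below all others, with summed bounds of 11.6 to 16.6 against 40.4 to 63.9 for the empty vector. With p42 the bounds, 21.4 to 37.4, were also below, while p37, p40 and all isoforms lay between both controls.

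DHCR7 (ENSG00000172893, hg19 chromosome 11, 71139239 to 71163914) carries out the last reduction to cholesterol. It stood at 14.6 scaled FPKM in the control siRNA library and 12.5 in the AUF1 siRNA library, at 12.6 in that of the empty vector, and at 8.32 (p37), 15.9 (p40), 11.7 (p42), 27.9 (p45) and 7.75 (all isoforms). It was highest with p45, where its bounds (17.6 to 38.2) lay above those of the empty vector (8.33 to 16.9), and lowest with all isoforms and p37.

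**Figure D1:**
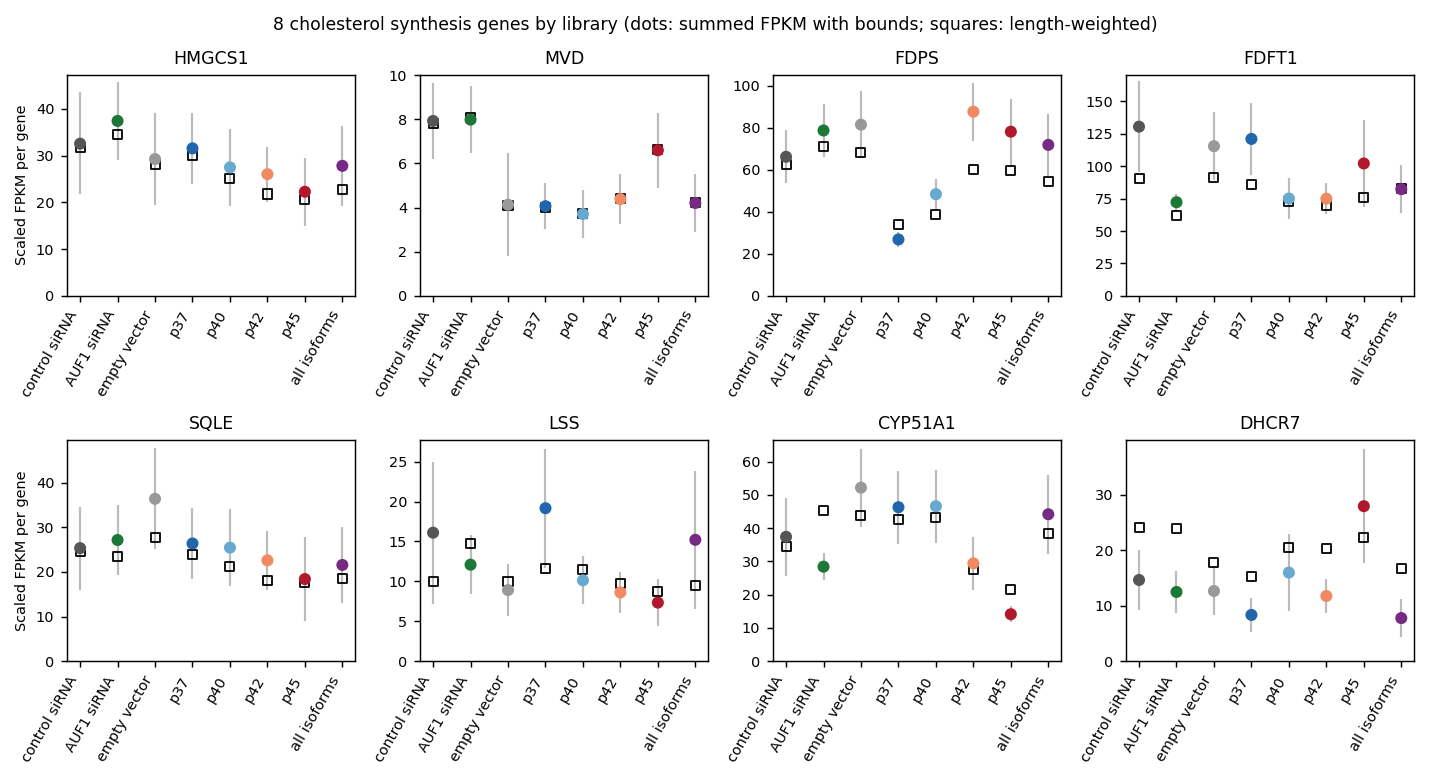
Each panel plots 1 gene, with the 8 libraries on the x axis and scaled FPKM per gene on the y axis from 0. Dots are summed FPKM with the deposited bounds, scaled and summed, as bars, and open squares are the length-weighted sums. FDPS with p37 (26.8) and CYP51A1 with p45 (14.1) stand lowest among their dots, and the squares of both genes lie closer to the other libraries.

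Levels were set side by side as log2 ratios of scaled FPKM plus 1, and a gene counted as called at a ratio of 1 or more in size, a 2-fold difference, in a pair with a mean of 5 scaled FPKM or more. In the knockdown 0 of the 8 genes were called lower and 0 higher, where 3.25% of all tested genes were called lower and 9.91% higher. The 8 ratios ran from -0.85 for FDFT1 to 0.25 for FDPS, with 4 below 0 and 4 above, and their median was -0.10 against -0.04 for all tested genes. FDFT1 was the gene farthest from its control and the only one of the 8 whose bounds lay apart from it. No share of all genes with bounds apart is given beside this, so it is a description. On the length-weighted scale the median was 0.08, with FDFT1 at -0.53 and LSS at 0.51.

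With p37, a comparison the choice of genes had used, 1 of 7 tested genes was called lower and 1 higher, beside 2.78% and 2.9% of all tested genes. FDPS lay at -1.57 and LSS at 1.03, DHCR7 at -0.55 and SQLE at -0.45, and CYP51A1 (-0.17), FDFT1 (0.07) and HMGCS1 (0.10) within 0.2. The median of the 7 was -0.17, where all tested genes had -0.01. With p45, also used by the choice, 1 of 8 was called lower and 1 higher, beside 3.05% and 4.97%. CYP51A1 lay at -1.82 and DHCR7 at 1.09, SQLE at -0.95, HMGCS1 at -0.38, LSS at -0.25, FDFT1 at -0.18, FDPS at -0.06 and MVD at 0.57. Their median was -0.21, where all tested genes had -0.02. The genes past 2-fold were thus different ones with p37 and with p45.

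The choice of genes did not rest on p40, p42 or all isoforms, although these share the empty vector library with p37 and p45. With p40, 0 of 7 tested genes were called lower and 0 higher, beside 2.84% and 3.93% of all tested genes, and the median was -0.16. FDPS was lowest there, at -0.74, before FDFT1 at -0.61. With p42, 0 of 7 were called in either direction, beside 2.72% called lower and 3.0% called higher, and the median was -0.16 in summed but -0.35 in length-weighted FPKM. CYP51A1 was lowest with p42, at -0.81, then SQLE at -0.66 and FDFT1 at -0.62. With all isoforms together, 0 of 7 were called, beside 2.97% lower and 3.21% higher, and the median was -0.24 with SQLE lowest at -0.73 and LSS highest at 0.71. The medians of all tested genes in these comparisons ran from -0.02 to -0.01. Since the 5 overexpression comparisons share the empty vector library, its own level enters each of these medians.

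Between the control siRNA and the empty vector, 0 of 8 genes were called lower and 0 higher, beside 4.05% and 3.53% of all tested genes. The ratios ran from -0.51 for SQLE to 0.80 for MVD, with LSS at 0.79 and CYP51A1 at -0.47. Their median was 0.16, but 0.00 in length-weighted FPKM and -0.30 over the 5 genes with a mean of 20 scaled FPKM or more, so its direction was not held. The widest of these, for MVD and LSS, were larger than the ratios of the same genes in the knockdown.

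**Figure D2:**
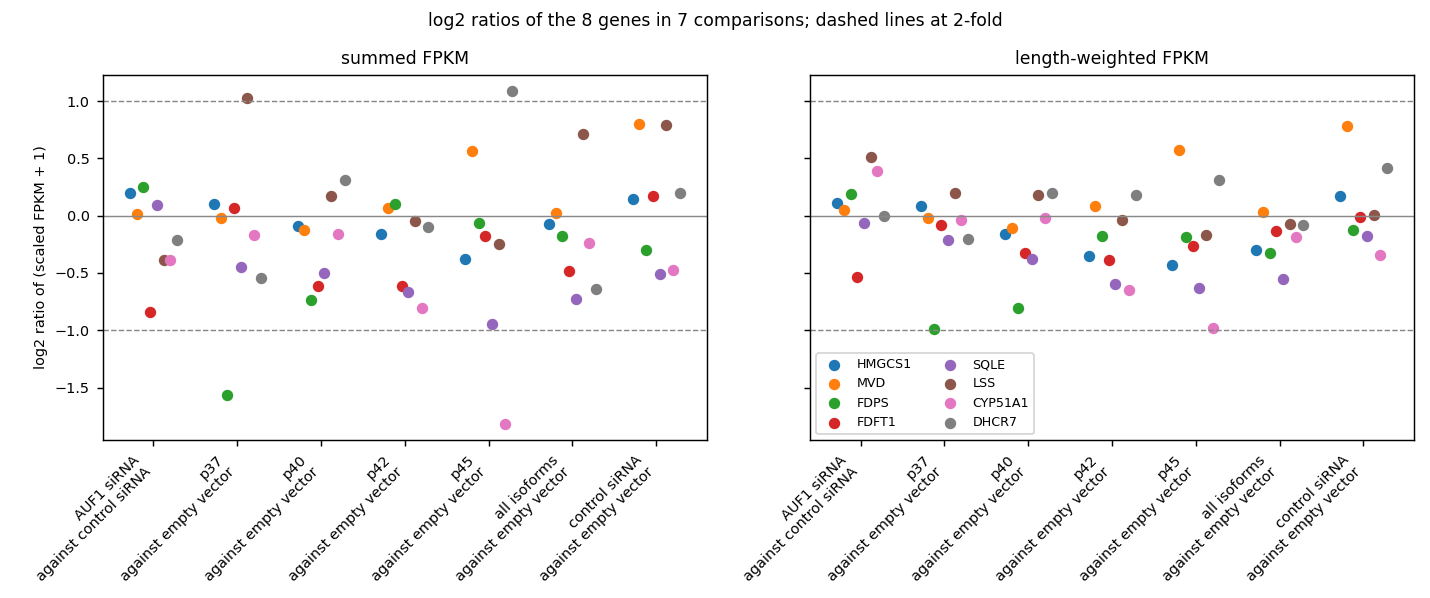
The x axis gives the 7 comparisons and the y axis the log2 ratio of scaled FPKM plus 1, for summed FPKM on the left and length-weighted FPKM on the right, with 1 colour per gene and dashed lines at 2-fold. MVD is drawn also where its mean was too low to be tested. On the left 4 points lie outside the lines, FDPS and LSS with p37 and CYP51A1 and DHCR7 with p45, and on the right none does, with FDPS at -0.99 and CYP51A1 at -0.98 just inside.

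These calls moved with the transcripts that the deposited tables listed for a gene. FDPS with p37 was carried by 1 assembled transcript of 1186 nt at 27.3 FPKM as deposited, while the empty vector library had a retained-intron transcript of 554 nt (ENST00000492887) at 43.6 and an assembled one of 1018 nt at 43.2. CYP51A1 with p45 was carried by 1 assembled transcript of 2780 nt at 13.8 FPKM, near the 15.7 FPKM of the transcript of that length with the empty vector. The p45 library lacked an assembled transcript of 3126 nt that had 4.98 FPKM with the empty vector, and one of 747 nt (ENST00000422867) that had 34.9. Both carried the deposited status LOWDATA there, which Cufflinks gives to transcripts of regions that are too complex or too thinly sequenced. The AUF1 siRNA library also lacked the transcript of 747 nt and had 20.7 FPKM for that of 2780 nt. DHCR7 showed the reverse: with p45 an assembled transcript of 832 nt at 15.8 FPKM and one of 579 nt (ENST00000527452) at 7.89 were listed. In the empty vector library DHCR7 had transcripts of 979 nt and 2148 nt, at 6.94 and 6.49. LSS with p37 had the transcript of 517 nt at 11.5 FPKM, and none under 1000 nt was listed with the empty vector.

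Over all 64 values of the 8 genes in 8 libraries, 41 drew more than 50% of their FPKM from transcripts under 1000 nt, 22 drew more than 50% from LOWDATA transcripts and 6 came from assembled transcripts alone. DHCR7 had 16 different transcript lengths above 0 over the libraries, LSS 9, and MVD 2. FPKM is divided by length, so the same fragments give a higher value on a short transcript. Each transcript's FPKM was therefore also weighted by its length over the mean annotated length of its gene, which gives a value roughly proportional to fragments. It is only rough because the length by which the deposited FPKM was divided may be less than the full one, mostly for short transcripts. On this length-weighted scale FDPS with p37 lay at -0.99, CYP51A1 with p45 at -0.98, LSS with p37 at 0.20 and DHCR7 with p45 at 0.31, so FDPS and CYP51A1 kept most of a 2-fold difference and LSS and DHCR7 did not.

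**Figure D3:**
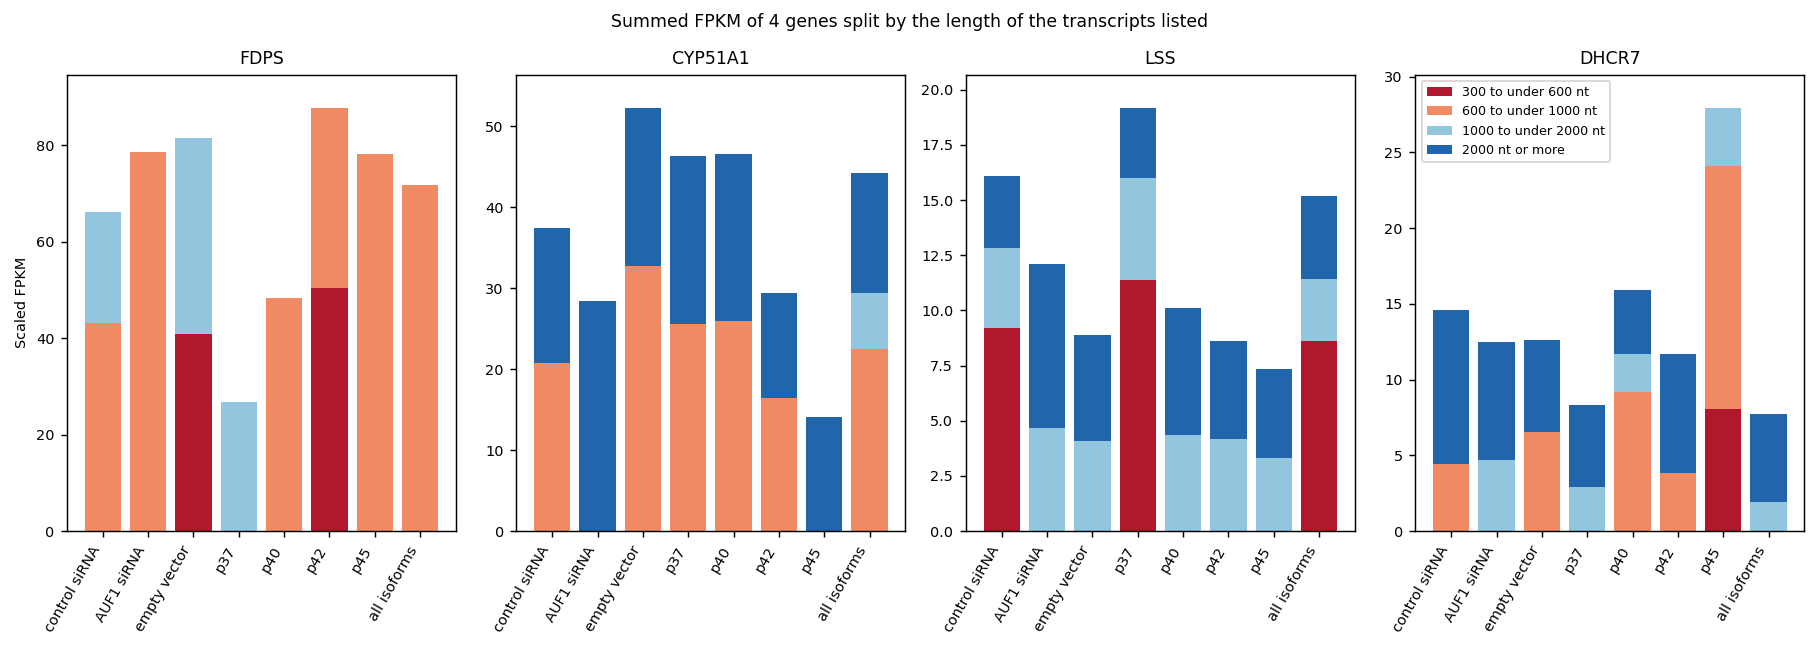
Stacked bars give the scaled FPKM of FDPS, CYP51A1, LSS and DHCR7 in each of the 8 libraries, split by transcript length at 600, 1000 and 2000 nt. CYP51A1 has no part under 1000 nt with p45 and with the AUF1 siRNA, LSS has a part under 600 nt in 3 libraries, and DHCR7 is mostly under 1000 nt with p45 (86.5%).

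Length-weighted FPKM put the libraries in a more even order. FDPS stood at 62.5 in the control siRNA library and 71.3 in the AUF1 siRNA library, at 68.3 in that of the empty vector, and at 33.9 (p37), 38.6 (p40), 60.2 (p42), 59.8 (p45) and 54.4 (all isoforms). All 5 overexpression libraries lay below the other 3, with p37 and p40 far below. FDFT1 stood at 90.4 in the control siRNA library and 62.1 in the AUF1 siRNA library, at 91.1 in that of the empty vector, and at 86.1 (p37), 72.6 (p40), 69.4 (p42), 75.9 (p45) and 83.1 (all isoforms). Here too the 5 lay below both controls, and the AUF1 siRNA library was below all of them. SQLE stood at 24.6 in the control siRNA library and 23.5 in the AUF1 siRNA library, at 27.8 in that of the empty vector, and at 23.9 (p37), 21.2 (p40), 18.1 (p42), 17.6 (p45) and 18.6 (all isoforms). For SQLE the 5 were below both controls, with p37 close to them and above the AUF1 siRNA library.

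The remaining genes overlapped with the controls on the length-weighted scale. HMGCS1 ran from 20.6 with p45 to 29.9 with p37 in the overexpression libraries, against 31.8 and 28.1 in the control siRNA and empty vector libraries and 34.5 with the AUF1 siRNA. CYP51A1 ran from 21.7 with p45 to 43.3 with p40, against 34.4 and 43.8, and stood at 45.2 with the AUF1 siRNA. LSS ran from 8.78 with p45 to 11.6 with p37, against 10.0 and 9.98, with 14.7 for the AUF1 siRNA. DHCR7 ran from 15.2 with p37 to 22.2 with p45, against 24.0 and 17.7. The AUF1 siRNA library was the highest of the 8 for 5 genes (HMGCS1, MVD, FDPS, LSS and CYP51A1), and the p45 library the lowest for 4 (HMGCS1, SQLE, LSS and CYP51A1). In summed FPKM the AUF1 siRNA library was the highest for HMGCS1 and MVD only. The choice of genes had used p45. The shares of all genes highest or lowest in these libraries are not given, so both counts are descriptions.

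The sum of the 8 genes placed the overexpression libraries together. In summed FPKM it was at 331 in the control siRNA library and 276 in the AUF1 siRNA library, at 341 in that of the empty vector, and at 284 (p37), 253 (p40), 265 (p42), 277 (p45) and 275 (all isoforms). FDFT1 and FDPS were the largest terms of it, except with p37, where CYP51A1 exceeded FDPS, and the AUF1 siRNA library lay among the overexpression libraries. In length-weighted FPKM it was at 285 in the control siRNA library and 283 in the AUF1 siRNA library, at 291 in that of the empty vector, and at 247 (p37), 236 (p40), 231 (p42), 233 (p45) and 247 (all isoforms). There the 5 overexpression libraries, 231 to 247, lay below the 3 others, 283 to 291. No test was run on the sum, since the choice of genes fixes part of its direction.

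Gene by gene, the count of members with all 5 overexpression libraries below both the control siRNA and the empty vector depended on the scale, and it draws on p37 and p45. In summed FPKM it was 0 of 7 tested, beside 7.3% of all tested genes, and 0 of 7 lay above both controls, beside 6.32%. In length-weighted FPKM it was 3 of 7, FDPS, FDFT1 and SQLE, beside 8.23% of all tested genes, with 0 of 7 above, beside 6.29%. The choice of genes did not use p40, p42 or all isoforms, but it used the empty vector library, which is a control here too. Counts in these libraries alone are therefore not independent of the choice. In summed FPKM 2 of 7 were below both controls in them, HMGCS1 and FDFT1, beside 13.0%, and 0 were above, beside 11.1%. In length-weighted FPKM 4 of 7 were below in those libraries, HMGCS1, FDPS, FDFT1 and SQLE, beside 14.9%, and 0 were above, beside 10.9%. This comparison and its counts were added after the values had been seen.

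Other enzymes of the pathway were compared from a list of 14, of which 11 could be set against both controls. IDI1, the isopentenyl diphosphate isomerase, ran from 31.9 with p42 to 43.9 with p37 in summed FPKM, against 47.2 in either control. MSMO1, a C4 sterol methyl oxidase, ran from 5.76 with p45 to 8.37 with all isoforms, against 13.5 and 9.17. Both lay below both controls in all 5 overexpression libraries on both scales, among 3 of 11 that did so in summed FPKM, beside 7.3% of all tested genes. In length-weighted FPKM it was 4 of 11, beside 8.23%, among them IDI1, MSMO1 and SC5D.

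Few of these enzymes passed 2-fold. In the knockdown 2 of 12 tested were called higher and 0 lower, beside 9.91% and 3.25% of all tested genes. MVK, the mevalonate kinase, was at 15.9 scaled FPKM against 2.69 in its control and LBR, a sterol reductase of the nuclear envelope, at 66.7 against 26.3, with log2 ratios of 2.20 and 1.31 that were 0.97 and 0.14 when weighted by length. LBR was called lower with p37, p42 and all isoforms, at -1.47, -1.68 and -1.84, but it was 85.5 scaled FPKM with the empty vector and 26.3 with the control siRNA, and its length-weighted ratios were -0.15, -0.34 and -0.52. HSD17B7 was called lower with all isoforms at -1.41, or -0.50 when weighted by length. No other enzyme of the list was called in these comparisons.

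Among 11 genes of sterol control, 9 could be set against both controls and 4 lay below both in all 5 overexpression libraries, on both scales, among them SREBF2 and INSIG1, beside 7.3% of all tested genes in summed and 8.23% in length-weighted FPKM. INSIG1, which is itself raised by SREBP-2, ran from 12.4 to 15.4 scaled FPKM in these libraries, against 18.6 in the control siRNA and 16.6 in the empty vector library, and was 20.9 with the AUF1 siRNA. SREBF2 ran from 19.3 to 21.9, against 22.8 and 23.0, and its mean difference was only -0.17 on the log2 scale. In length-weighted FPKM SREBF2 with p45 (33.31) was barely below the empty vector (33.40). None of the 9 tested genes was called in any overexpression comparison or in the knockdown. SREBF1 was listed at 0 in all libraries but p40, where it stood at 7.96.

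**Figure D4:**
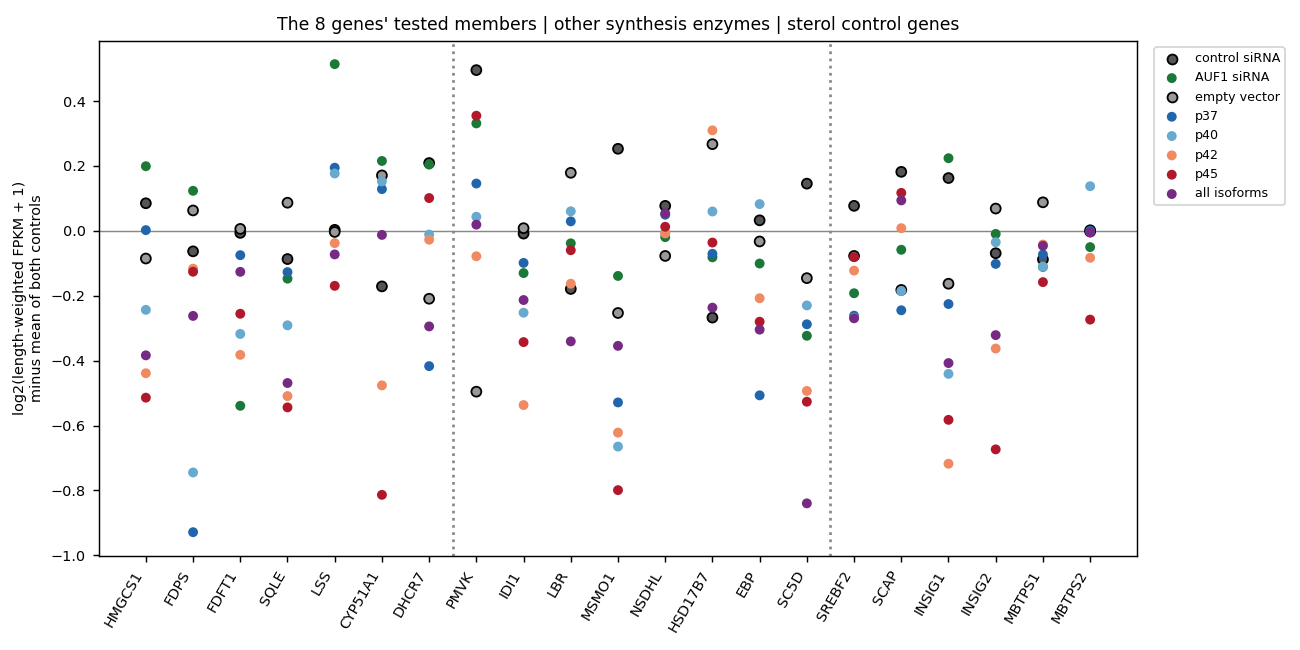
The y axis gives log2 of length-weighted FPKM plus 1 minus the mean of both controls, and the x axis the tested genes of the 8 (left) and some of the tested other synthesis enzymes (middle) and sterol control genes (right). Each dot is 1 library and both controls have black rims. For FDPS, FDFT1, SQLE, IDI1, MSMO1 and INSIG1 the 5 overexpression dots lie below both rimmed dots, while LSS, PMVK and NSDHL show no such order.

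Of the uptake and trafficking genes, 0 of 8 tested in summed FPKM and 1 of 8 in length-weighted FPKM (MYLIP) lay below both controls in all 5 overexpression libraries, beside 7.3% and 8.23% of all tested genes. In the knockdown the exporter ABCG1 was 27.8 against 8.37 and the lipid carrier APOE 8.35 against 1.97, with log2 ratios of 1.62 and 1.66 that hardly moved when weighted by length (both 1.66). They were 2 of 4 tested genes of efflux and its regulators called higher there, beside 9.91% of all tested genes, and the others were not called. ABCG1 was also above both controls in all 5 overexpression libraries, the 1 gene of this list that could be placed, at 9.56 to 17.8 scaled FPKM against 8.37 and 9.53, the lowest of them by a margin too small to set it apart. The lysosomal lipase LIPA was called higher with p42, at 1.10 and 0.41 when weighted.

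Of the fatty acid genes, which share SREBP factors with cholesterol synthesis, 1 of 8 lay below both controls in summed FPKM and 2 of 8 in length-weighted FPKM, beside 7.3% and 8.23% of all tested genes. Above both controls lay 1 of 8 in summed FPKM (ACSL3, 35.5 to 53.3 against 29.9 and 26.8) and 0 of 8 in length-weighted FPKM, and ACACA was not analysed here. ACLY, which makes cytosolic acetyl-CoA, lay below both controls in all 5 overexpression libraries on both scales, at 37.1 to 46.42 scaled FPKM against 52.3 and 46.45. The highest of these, with p37, was below the empty vector by a margin too small to set it apart. SCD did so only in length-weighted FPKM, at 56.3 to 69.0 against 79.8 and 74.5. FADS1 was called lower in the knockdown (-1.21) and higher with p40 (1.62), with length-weighted ratios of 0.12 and 0.06, and ACSS2 was called lower with all isoforms (-1.24, or -0.48 when weighted). In the branch that uses farnesyl diphosphate for other products, FNTA, a farnesyltransferase subunit, was called higher with p37, p40, p45 and all isoforms, at 2.89 to 3.33, while the length-weighted ratios were 0.56 to 0.82. FNTA stood at 3.15 scaled FPKM in the empty vector library and was listed at 0 in the control siRNA and p42 libraries.

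The spread of the 8 genes between libraries is a description, since the choice of genes drew on it. Their SD over the libraries, of log2 scaled FPKM plus 1, was above that of the median gene (0.26) for 7 of 8, from 0.22 for HMGCS1 to 0.59 for CYP51A1. Length weighting narrowed this to a range from 0.20 for FDFT1 to 0.39 for MVD, against a median gene of 0.19, and all 8 lay above it. Pairs of the 8 genes did not run in parallel throughout: of 28 pairs, 17 had a Pearson r above 0 in summed FPKM, from -0.72 for CYP51A1 with DHCR7 to 0.70 for SQLE with CYP51A1. In length-weighted FPKM 19 were above 0, up to 0.83 for HMGCS1 with SQLE. These values are descriptions over 8 libraries that share scaling factors.

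The mean profile of the 8 genes, as centred log2 values, was highest with the control siRNA at 0.24, then the empty vector at 0.14 and the AUF1 siRNA at 0.08, and lay between -0.14 with p42 and -0.06 with p37 in the overexpression libraries. In length-weighted FPKM the order differed, with the AUF1 siRNA library highest at 0.26, then the control siRNA at 0.18 and the empty vector at 0.09, and the overexpression libraries between -0.15 and -0.07. Among 4448 other genes with a mean of 20 scaled FPKM or more, the 5 with the most similar profile over the 8 libraries were RABGAP1L-IT1 (Pearson r 0.94), EID1 (0.93), TCEA1 (0.92), TFRC (0.91) and PLXNB2 (0.90). TFRC, the transferrin receptor, ran from 102 with all isoforms to 211 with the control siRNA. In length-weighted FPKM the r of the 5 genes was 0.84, 0.61, 0.20, 0.84 and 0.77, so TCEA1 was alike on the summed scale only. These genes were picked for the highest r of 4448 over 8 libraries. A high r follows in part from that ranking and is a description.

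Some of these values can hold reads of other loci. The sources used here do not state a strand, so reads of a gene and of a gene on the other strand could not be told apart, and 6 of the 8 genes overlapped such a gene in GENCODE 29, among them FDPS with RUSC1-AS1 and CYP51A1 with CYP51A1-AS1. FDPS has 8 named pseudogenes and CYP51A1 has 3, so their values are uncertain to the extent that reads were shared.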

How the data were processed

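Total RNA of 8 HEK293 libraries, 1 per group, was analysed. Per the labels' protocols the RNA was turned into cDNA, amplified isothermally by a kit that takes up polyadenylated and other RNA, and sequenced on an Illumina Genome Analyzer. The authors deposited 1 table per library with an FPKM value, its lower and upper bound, coverage and a status for each transcript, per the file headers. The coverage signal was deposited on a scale that is a constant multiple of FPKM in each library, which served as relative depth; read numbers are unknown, and no counting interval is given. Cufflinks 2.0.2, TopHat2 2.0.6, Cuffdiff and the build hg19 are named in the submitters' processing notes. The annotation release was not given in the sources used here.

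Python 3.11.15 with pandas 2.3.3, numpy 2.4.6 and matplotlib 3.10.9 was used. Of 160485 Ensembl transcripts 136913 matched GENCODE 29 by identifier. Other transcripts, assembled ones included, went to the gene of their deposited cluster, and in clusters of several genes to the gene with the best overlap. Transcripts under 300 nt were left out, FPKM was summed per gene and divided by a median-of-ratios factor from 13881 genes. A gene was tested in a pair with a mean of 5 scaled FPKM or more, both values above 0 and no failed status, and called at a log2 ratio, with a pseudocount of 1 FPKM, of 1 or more in size. The pseudocount understates changes of low genes. Scaling and calling were tested on simulated gene values with known changes put in. The listing of transcripts and their placing with genes were not simulated. The deposited bounds cover the estimate in its own library, not spread between cultures.

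The 8 genes and the 9 other gene lists were chosen with earlier results of these data known. Of the other lists, genes past 2-fold in an overexpression or knockdown comparison were named, up to 4 per list, with IDI1, SREBF2 and INSIG1 always named. Some genes under this rule are not reported here, but the counts over the lists include them. Genes placed below both controls in the overexpression libraries were named after their values had been seen. Each result was recomputed with 11 other settings of scaling, pseudocount, filter, transcript length, transcript set and control, and with 2 more chosen after seeing the data.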

Additional observations from a re-analysis of the deposited data

How the results depend on the processing

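Of 190 alternative values of the medians and counts, 165 stayed within the spread of 0.29 between the controls or within 1.5 times the count. This spread is a scaled median absolute deviation over all tested genes, put on the scale of 1 library. It exceeds in size every main median of the 8 genes, so a median that stayed could still lose or change its direction. The knockdown median did so, at -0.10 in summed and 0.08 in length-weighted FPKM. The cause of a move was not tested unless it is given by fewer genes. The 1 gene called lower with p37 (FDPS) became 0 with length-weighted sums, with transcripts of status OK and with transcripts of 1000 nt or more. The count was also 0 with protein_coding transcripts and without assembled transcripts. There FDPS had no value with p37 and was not tested, so these settings could not have kept the call. The 1 gene called lower with p45 (CYP51A1) became 0 with length-weighted sums or 1000 nt or more. The count was 2 with FPKM as deposited, with status OK or with the control siRNA as the control. With protein_coding transcripts or no assembled transcripts the count was 0, but there CYP51A1 had no value with p45 and was not tested. The p42 count was 1 with status OK, and the knockdown count 1 with protein_coding or without assembled transcripts, in place of 0. Medians moved with a minimum mean of 20, where 5 genes remain, to -0.50 for p40, -0.62 for p42 and -0.30 between the controls. With protein_coding transcripts they were -0.70 for p42 and -0.49 between the controls, where HMGCS1 and FDPS had no value. Without assembled transcripts they were -0.51 for p42 and 0.25 for p45, the latter without CYP51A1, which had no value there. With 1000 nt or more the knockdown median was 0.37, without FDPS, which had no value with the AUF1 siRNA. Where genes drop out, the median covers another set than the main one. LSS with p37 turned to -0.17 with transcripts of 1000 nt or more. The count of genes with all 5 overexpression libraries below both controls was 0, but 3 with length-weighted sums and 1 with 1000 nt or more. The alternatives without assembled transcripts, with 1000 nt or more and of this last count were chosen after seeing the data. No paired analysis was possible because each group holds 1 library, and none could be left out in turn. Read numbers are unknown, so what depth limits was not computed; MVD and LSS dropped out at a minimum mean of 20, and so did DHCR7 except with p45.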
